A study of Mus musculus with 157 samples.

Results

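Hepatic stellate cell and extracellular matrix genes were followed in the livers of 157 male mice. The set was a list of 33 Ensembl identifiers with their symbols: collagens, matrix glycoproteins and proteoglycans, cross-linking enzymes, matrix proteases and their inhibitors, and cytoskeletal and signalling genes of stellate cells. Of these, 32 had a row among the 23176 genes of the deposited table. Col6a1 (ENSMUSG00000001119_at) was not analysed here.

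All mice were of the pre-Collaborative Cross, which consists of incompletely inbred lines that descend from WSB/Ei, PWK/Ph, NZO/H1LtJ, NOD/LtJ, CAST/Ei, C57BL/6J, A/J and 129S1/SvImJ founders, with 1 mouse and 1 Affymetrix array per strain. All were fed Purina Formulab Chow 5008 and went through a protocol with alcohol exposure and exercise before they were killed at 12 to 15 weeks of age. The labels do not say which mouse had which intervention, and no group is labelled as untreated. The mice fell by kill date into 10 cohorts, which held 20, 21, 11, 5, 6, 10, 37, 22, 12 and 13 mice from the first to the last. Cohort 1 was killed on days 0 and 1, cohort 7 on days 168 to 170, cohort 8 on days 197 and 198, and cohort 10 on day 282.

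Stellate cells lie in the space between hepatocytes and sinusoidal endothelium, where they store vitamin A as retinyl esters. When the liver is injured they lose these stores, take on features of smooth muscle and secrete fibrillar collagen, a change known to be driven by transforming growth factor beta and platelet-derived growth factor. Portal fibroblasts, vascular smooth muscle and endothelium make part of the same matrix. In whole liver, fewer cells of a type and less RNA per cell cannot be told apart.

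The values of the table are rank scores. For each gene the 157 livers are placed in order and given a score from -2.4932 (lowest) to 2.4932 (highest), with 0 at the middle. A score holds no expression level, and levels of stellate cell markers against those of other cells could therefore not be checked. A difference or slope is in score units throughout.

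The promoters of 4 collagen genes that take part in the closest pairs below are shown. For 2 of them the windows overlap on opposite strands, while the other 2 genes lie on different chromosomes. Each promoter is a window of 300 bases from RefSeq, build GRCm38.p6, from 250 bases before the annotated start through the 50 bases from it on. Col4a1 lies at chr8:11312777-11313076 on the minus strand and Col4a2 at chr8:11312555-11312854 on the plus strand. The 2 windows share 78 bases, which are in capitals and run in opposite directions. Col1a2 lies at chr6:4505368-4505667 and Col3a1 at chr1:45311288-45311587, both on the plus strand. Their capitals mark any GGGCGG (the core of the Sp1 motif), any CCAAT box and any TATAAA, on either strand. The TATAAA of Col3a1 is at positions -117 to -112 from the annotated start.
Col4a1: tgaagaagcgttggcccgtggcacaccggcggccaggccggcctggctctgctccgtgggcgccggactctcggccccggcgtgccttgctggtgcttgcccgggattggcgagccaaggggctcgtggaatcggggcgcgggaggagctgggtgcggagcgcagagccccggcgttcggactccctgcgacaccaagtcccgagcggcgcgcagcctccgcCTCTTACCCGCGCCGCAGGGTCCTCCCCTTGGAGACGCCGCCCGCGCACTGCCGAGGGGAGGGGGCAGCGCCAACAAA
Col4a2: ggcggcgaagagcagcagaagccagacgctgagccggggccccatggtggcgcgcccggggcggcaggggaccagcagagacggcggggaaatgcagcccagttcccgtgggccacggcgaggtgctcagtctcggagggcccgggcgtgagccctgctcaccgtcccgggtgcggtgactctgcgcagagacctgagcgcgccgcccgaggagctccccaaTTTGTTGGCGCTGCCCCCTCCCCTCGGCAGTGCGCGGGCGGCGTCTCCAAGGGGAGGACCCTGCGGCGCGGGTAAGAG
Col1a2: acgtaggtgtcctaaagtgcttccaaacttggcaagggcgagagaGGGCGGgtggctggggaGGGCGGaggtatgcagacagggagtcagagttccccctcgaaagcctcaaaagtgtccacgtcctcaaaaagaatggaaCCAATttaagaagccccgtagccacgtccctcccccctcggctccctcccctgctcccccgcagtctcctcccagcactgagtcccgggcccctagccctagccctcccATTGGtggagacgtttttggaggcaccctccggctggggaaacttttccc
Col3a1: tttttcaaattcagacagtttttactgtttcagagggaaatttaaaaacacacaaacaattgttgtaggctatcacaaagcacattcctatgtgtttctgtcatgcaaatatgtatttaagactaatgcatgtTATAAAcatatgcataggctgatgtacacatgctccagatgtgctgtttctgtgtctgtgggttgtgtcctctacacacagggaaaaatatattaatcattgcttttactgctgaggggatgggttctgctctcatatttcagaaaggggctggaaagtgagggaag

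Promoter rows were found for 22 of the 33 listed genes. GGGCGG was present on either strand in at least 1 window of 15 of the 22 genes (68.2%), against 35.9% of the 32534 promoter windows of the table. CCAAT was present in 7 of 22 genes (31.8%), against 37.4% of windows, and TATAAA in 2 of 22, Col3a1 and Vim (9.09%), against 13.6%. The SMAD element CAGAC was present in 10 of 22 (45.5%), against 49.5%. The TEAD element CATTCC was present in 5 of 22 (22.7%), against 14.6%. The AP-1 element TGACTCA was present in 1 of 22, Col6a1, against 5.20% of windows. No window of the 22 held the CArG box, which 1.64% of all windows held. Some forms of the CArG box contain CCAAT or TATAAA, and no other motif of these contains another. They are matches of letters, and no binding was measured. Col1a2 had CCAAT on both strands and GGGCGG at 2 places, while Col3a1 had neither and 1 TATAAA.

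The scores of the members went together over the livers more often than those of all genes, but only a few pairs were close. Over the 496 pairs of members the median Pearson r was 0.111, against 0.0085 over all pairs of the 23176 genes. An r of 0.5 or more was found for 5 pairs (1.01%), against 0.173% of all pairs. An r of 0.3 or more was found for 70 pairs (14.1%), against 3.44% of all pairs, and 117 pairs (23.6%) were negative, against 47.6%. These shares describe the list and carry no test.

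An array-wide pattern ran through these values. The first principal component of the genes that are not members took 12.1% of their variance, and its r with the mean score of the array was 0.672. Of the 32 members, 14 (43.8%) had an r with this component of at least 0.3 in either direction, against 44.9% of all genes. With the component removed, the median r of the pairs was 0.0988, against 0.0075 for all pairs of genes, and 41 pairs (8.27%) had an r of 0.3 or more, against 0.342%. The closest pairs below are therefore given with and without it.

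**Figure D1:**
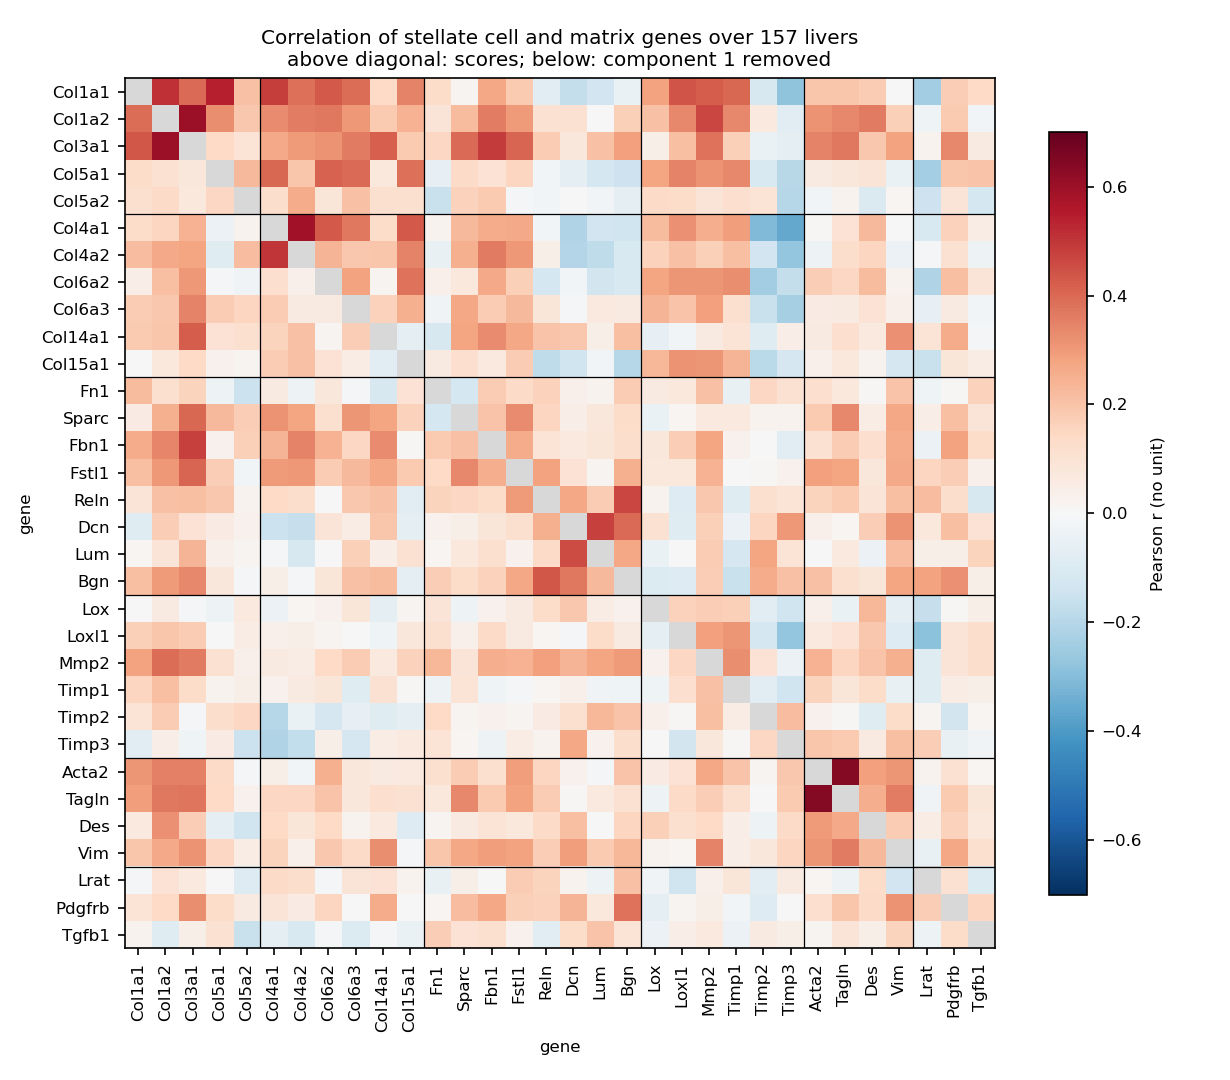
Pearson r for each pair of the 32 genes over 157 livers, with scores as deposited above the diagonal and with component 1 removed below it; both axes list the genes by role, and lines part the roles. The darkest cells are Acta2 with Tagln (0.644), Col1a2 with Col3a1 (0.597) and Col4a1 with Col4a2 (0.587), which remain dark below the diagonal.

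The fibrillar collagens form the banded fibres of scar. Type I collagen is built from the chains of Col1a1 (ENSMUSG00000001506_at) and Col1a2 (ENSMUSG00000029661_at), and type III from Col3a1 (ENSMUSG00000026043_at). Type V collagen, which sets fibre width, is built from chains that include those of Col5a1 (ENSMUSG00000026837_at) and Col5a2 (ENSMUSG00000026042_at). All 10 pairs of these 5 genes were positive, with r from 0.0936 to 0.597 and a median of 0.275. With component 1 removed their median was 0.131, against 0.0988 over all pairs of members.

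Col1a2 and Col3a1 were each other's nearest gene of the 23175 others (r = 0.597, Spearman's rho = 0.557, n = 157). The two-sided permutation p of both was 1e-05, the smallest that 100000 permutations can give, before any adjustment for the 496 pairs computed. Without the 2 livers farthest from the Col1a2 median, r was 0.566. Within the 8 hybridization batches r was between 0.124 and 0.840 and positive in 8 of 8. With component 1 removed, r was 0.597. Of the 15 livers highest for Col1a2, 8 were also among the 15 highest for Col3a1, and none was among the lowest.

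Col1a1 was less tied to its partner chain. Its r with Col1a2 was 0.510 (rho = 0.439, permutation p = 1e-05 for both, n = 157), and 0.465 without the 2 livers farthest from the Col1a1 median. Within batches r was between -0.133 and 0.818 and positive in 7 of 8. Among all genes, Col1a2 came 315th by r with Col1a1, while Col1a1 came 2nd by r with Col1a2. The member nearest to Col1a1 was Col5a1, with r = 0.546, but with component 1 removed that r was 0.129. With the component removed, the nearest of all genes to Col1a1 was Col3a1 (r = 0.433, against 0.397 with it), and Col1a2 came 2nd (r = 0.389).

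Col5a1 and Col1a1 followed component 1 most closely of the members, with r of 0.707 and 0.678. Col1a2 had 0.358, Col5a2 0.178 and Col3a1 0.119. The 5 fibrillar genes thus spanned most of the positive range of the members. What the component stands for was not tested.

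**Figure D2:**
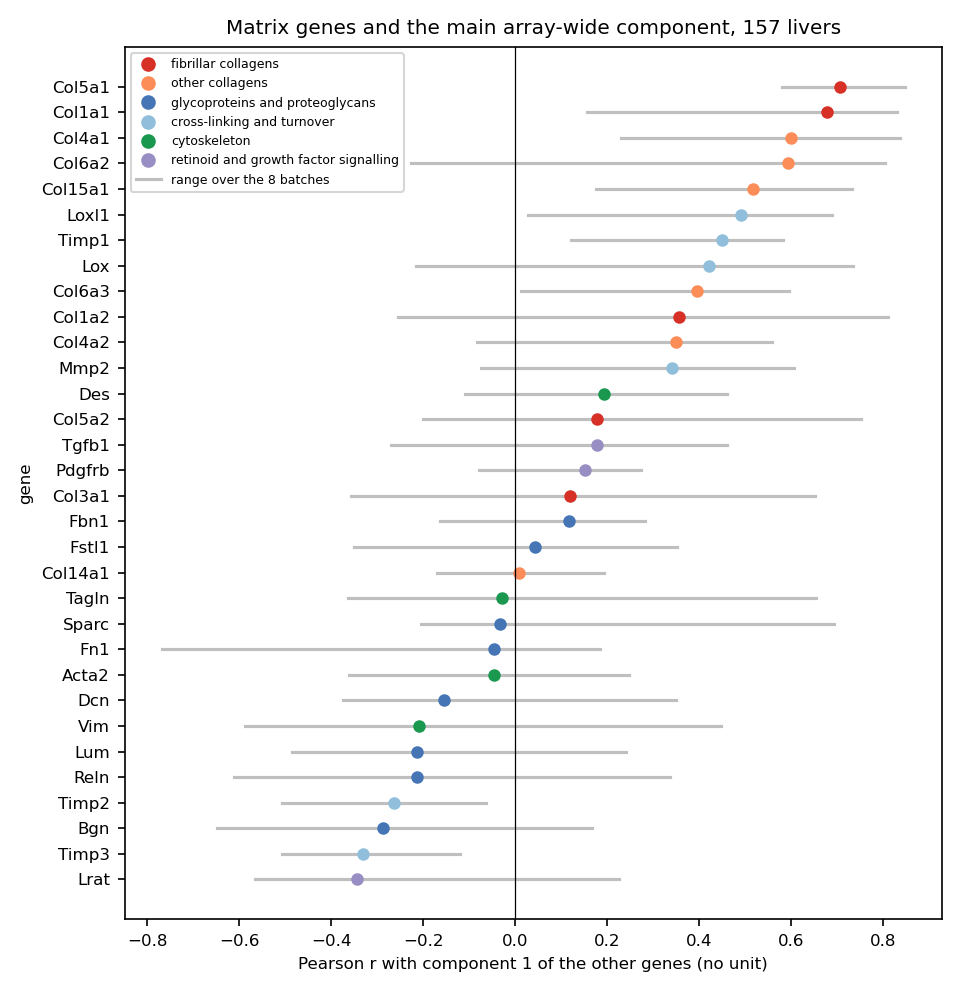
Pearson r of each of the 32 genes with component 1 of the other genes (horizontal axis, no unit), with 1 row per gene; points show all 157 livers, coloured by role, and grey lines the range over the 8 batches. Col5a1 (0.707) is at the top, Lrat (-0.343) at the bottom, and Acta2 and Tagln lie near 0.

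Of the 10 fibrillar pairs, the lowest r was that of Col5a2 with Col3a1. Col5a2 lies next to Col3a1 on chromosome 1, with no protein-coding gene annotated between them in GRCm38.p6. Their r was 0.0936 (rho = 0.0445). It was 0.0741 with component 1 removed. Col3a1 came 4341st among genes by r with Col5a2. Col5a2 had r of 0.203 with Col1a1, 0.187 with Col1a2 and 0.227 with Col5a1, all above the median of the member pairs. The highest r of Col5a2 with any member was 0.260, with Col4a2.

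A single liver was at the top for several of these genes. The mouse of strain OR5308, in cohort 7, had the highest score of all 157 for Col1a1, Col1a2, Col3a1 and Timp1, and scores above 0 for 28 of the 32 members. Its array was 43rd of 157 by spread and 57th on component 1. The mouse of strain OR5066, in cohort 8, had the lowest score for both Col1a1 and Col1a2, with -1.86 for Col3a1, and its array was 149th on component 1. Whether these orders go with the strain cannot be told, since each strain gave 1 mouse.

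Type IV collagen forms the sheet of basement membranes, and its common form is a trimer of the chains of Col4a1 (ENSMUSG00000031502_at) and Col4a2 (ENSMUSG00000031503_at). These are the genes whose promoter windows overlap above. Their r was 0.587 (rho = 0.531, permutation p = 1e-05 for both, n = 157), 0.572 without the 2 livers farthest from the Col4a1 median, and 0.454 to 0.726 within the 8 batches. With component 1 removed, r was 0.503 and each was the nearest of all genes to the other. Before that, Col4a2 came 2nd for Col4a1, which itself had an r of 0.601 with the component, against 0.350 for Col4a2.

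The other collagens of the list form beaded filaments (Col6a2, ENSMUSG00000020241_at, and Col6a3, ENSMUSG00000048126_at), coat fibrils (Col14a1, ENSMUSG00000022371_at) or link basement membranes to the tissue (Col15a1, ENSMUSG00000028339_at). Col6a2 and Col15a1 had r of 0.593 and 0.517 with component 1, and Col6a3 had 0.396. Their nearest members were Col4a1 for the first 2 (r = 0.432 for each) and Col5a1 for Col6a3 (r = 0.397). With the component removed, Col6a3 was nearest to Col3a1 among members (r = 0.349, 2nd of all genes), and so was Col6a2 (r = 0.304, 3rd). Col15a1 then had no r of 0.3 or more with any member. Col14a1 had an r of 0.00841 with the component, and its r with Col3a1 was 0.419, or 0.421 with the component removed. Col3a1 was the 3rd nearest gene to it both times.

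**Figure D3:**
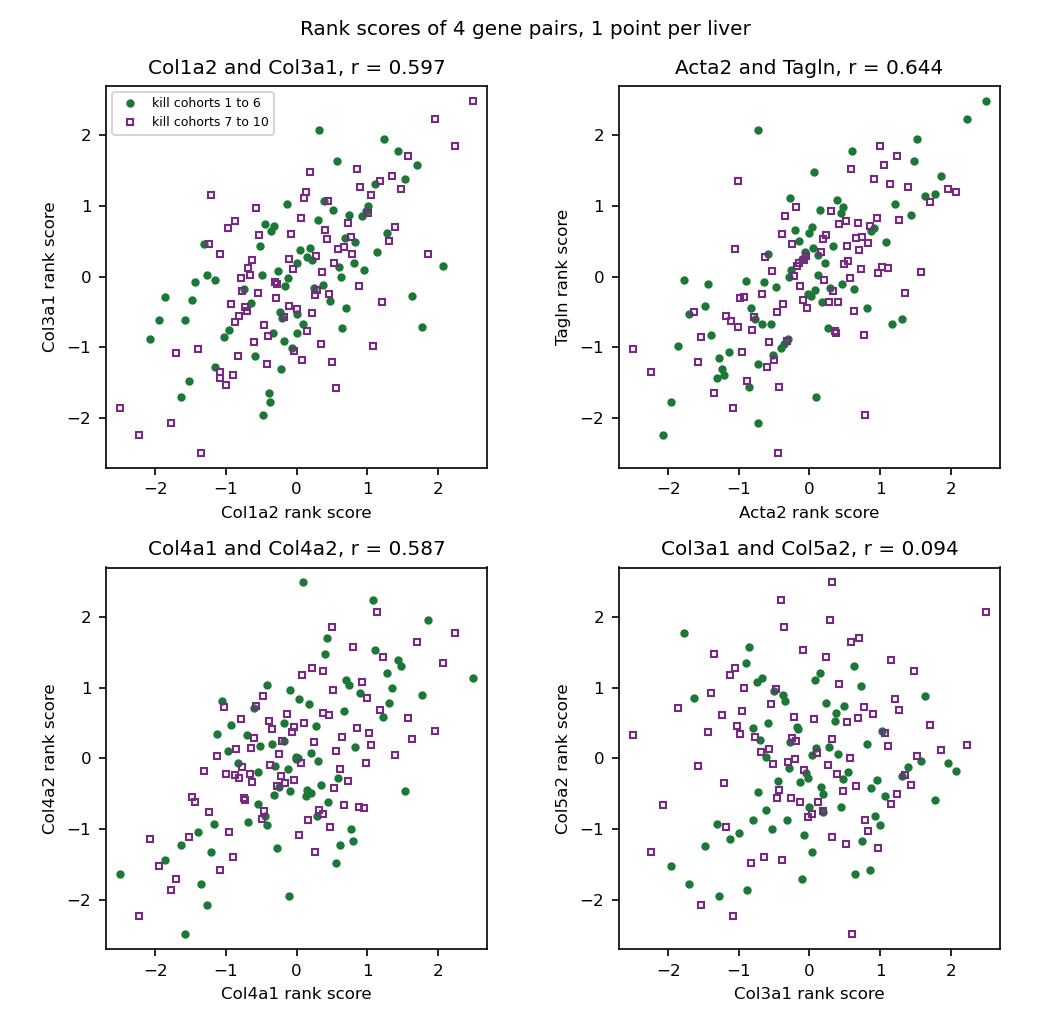
Rank scores of 4 gene pairs (both axes in score units), 1 point per liver, with filled circles for kill cohorts 1 to 6 and open squares for cohorts 7 to 10. Points lie along the diagonal for Col1a2 with Col3a1 (r = 0.597), Acta2 with Tagln (0.644) and Col4a1 with Col4a2 (0.587), and scatter widely for Col3a1 with Col5a2 (0.0936).

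Of the 8 glycoproteins and proteoglycans, 3 had Col3a1 among their 3 nearest genes. Col3a1 was the nearest of all genes to Fbn1 (ENSMUSG00000027204_at), the fibrillin of microfibrils, with r = 0.488 (rho = 0.438, permutation p = 1e-05 for both, n = 157) and 0.194 to 0.698 within batches. It was also the nearest gene to Fstl1 (ENSMUSG00000022816_at), a secreted glycoprotein of mesenchymal cells (r = 0.407). It came 3rd for Sparc (ENSMUSG00000018593_at), a collagen-binding protein (r = 0.396). With component 1 removed these 3 values were 0.481, 0.405 and 0.403. Fn1 (ENSMUSG00000026193_at), fibronectin, which hepatocytes also secrete into plasma, had no r of 0.3 or more with any member. Its highest was 0.204, with Mmp2.

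Another pair was of 2 small leucine-rich proteoglycans, which coat collagen fibrils. Dcn (ENSMUSG00000019929_at, decorin) and Lum (ENSMUSG00000036446_at, lumican) are neighbours on chromosome 10 with no protein-coding gene between them in GRCm38.p6. Their r was 0.476 (rho = 0.486, permutation p = 1e-05 for both, n = 157), 0.437 without the 2 livers farthest from the Dcn median, and 0.267 to 0.755 within batches. Lum was the 2nd nearest gene to Dcn, and Dcn the 5th nearest to Lum.

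Bgn (ENSMUSG00000031375_at, biglycan) had r = 0.467 with Reln (ENSMUSG00000042453_at, reelin, a large secreted glycoprotein used as a marker of stellate cells) and 0.395 with Dcn. Reln was 6th of all genes for Bgn, and Bgn 3rd for Reln. With component 1 removed, the r of Bgn with Reln was 0.434 and that of Dcn with Lum 0.459. Dcn had r of -0.165 with Col1a1, 0.104 with Col1a2 and 0.0788 with Col3a1, and with component 1 removed -0.0843, 0.173 and 0.0990. Its r with the mean of Col1a1, Col1a2 and Col3a1 was 0.00725, and that of Lum was 0.0314. The mouse of strain OR467, in cohort 3, had the highest score of all 157 for Dcn, Vim and Timp3, and 2.08 for Lum. Its array was 33rd of 157 by spread and 113th on component 1. The mouse of strain OR3061, in cohort 7, had the lowest for Dcn and -2.08 for Lum. The array of OR3061 was 7th by spread and 3rd on component 1, with which Dcn and Lum had r of -0.154 and -0.213.

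Among the enzymes that finish or degrade matrix, Mmp2 (ENSMUSG00000031740_at), a gelatinase made by stellate cells, followed type I collagen. Col1a2 was the nearest of all genes to Mmp2 (r = 0.465, rho = 0.481, permutation p = 1e-05 for both, n = 157), with r of 0.343 to 0.651 within batches and 0.391 with component 1 removed. By r with the mean score of Col1a1, Col1a2 and Col3a1, Mmp2 came 4th of 23173 genes (r = 0.518). The 2 genes at the head of that order were ENSMUSG00000052673_at (r = 0.535) and ENSMUSG00000068233_at (r = 0.525), to which the tables used here give no symbol. Of the other 29 members, 7 were among the first 231 genes, which are 1% of them. This order was computed only with component 1 left in, with which Col1a1 had an r of 0.678 and Mmp2 0.342.

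Lox (ENSMUSG00000024529_at) and Loxl1 (ENSMUSG00000032334_at) cross-link collagen and elastin. Loxl1 had r = 0.440 with Col1a1, and 0.166 with component 1 removed. Lox had no r of 0.3 or more with a member. Its highest was 0.284, with Col1a1. Both followed the component, with r of 0.422 for Lox and 0.492 for Loxl1.

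The inhibitors of matrix proteases did not move as one. Timp1 (ENSMUSG00000001131_at), known as induced in activated stellate cells, had r = 0.404 with Col1a1 and 0.451 with component 1. With the component removed, its highest r with a member was 0.213. Timp2 (ENSMUSG00000017466_at) and Timp3 (ENSMUSG00000020044_at) had r of -0.264 and -0.331 with the component, negative in all 8 batches. The lowest 2 correlations of the whole set were those of Col4a1 with Timp3 (r = -0.358) and with Timp2 (r = -0.312), which with the component removed were -0.210 and -0.199. Timp1 had r of -0.0739 with Timp2 and -0.142 with Timp3. Both values are with component 1 left in, with which Timp1 had a positive r and Timp2 and Timp3 negative ones.

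**Figure D4:**
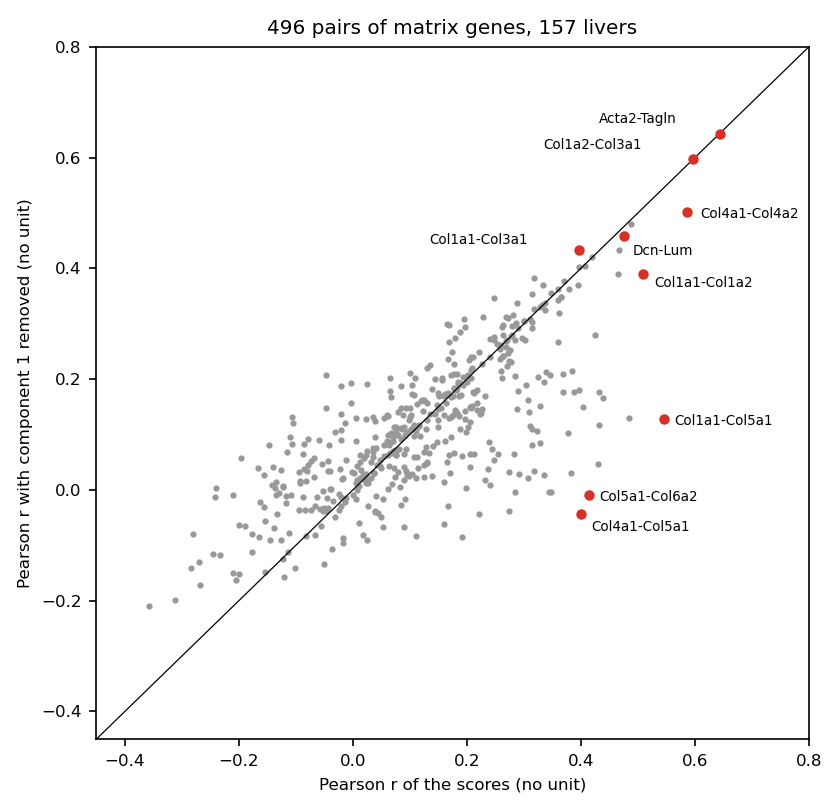
Pearson r of the 496 gene pairs with component 1 removed (vertical axis) against r of the scores as deposited (horizontal axis), 1 point per pair, 157 livers; the line marks equal values and red points are named pairs. Acta2-Tagln and Col1a2-Col3a1 lie on the line, while Col1a1-Col5a1 is at 0.546 before and 0.129 after the removal.

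The closest pair of all was contractile. Acta2 (ENSMUSG00000035783_at), smooth muscle actin, and Tagln (ENSMUSG00000032085_at), transgelin, mark vascular smooth muscle and activated stellate cells. Their r was 0.644 (rho = 0.639, permutation p = 1e-05 for both, n = 157), 0.626 without the 2 livers farthest from the Acta2 median, and 0.484 to 0.851 within the 8 batches. With component 1 removed r was 0.643. Acta2 was the nearest of all genes to Tagln, and Tagln the 2nd nearest to Acta2. The mouse of strain OR4410, in cohort 1, had the highest score of all 157 for both, with 2.24 for Des but 0.208 for Col1a1.

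Acta2 and Tagln went with the fibrillar collagens more weakly than with each other. Acta2 and Tagln had r of 0.347 and 0.370 with Col3a1. Over the 20 pairs of Acta2, Tagln, Des or Vim with a fibrillar collagen, the median r was 0.173. The values ran from -0.102 to 0.370, and 16 were positive. With component 1 removed the median of these pairs was 0.182, against 0.131 for the pairs among the fibrillar collagens. Des (ENSMUSG00000026208_at), desmin, a filament protein of rodent stellate cells and muscle, had Col1a2 as its nearest gene of all (r = 0.361, and 0.319 with component 1 removed) and an r of 0.286 with Acta2. Vim (ENSMUSG00000026728_at), vimentin, a filament protein of mesenchymal cells, had its highest r among members with Tagln (0.361), which came 19th of all genes. All 6 pairs of these 4 genes were positive, from 0.178 to 0.644.

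Of the 3 genes of retinoid storage and signalling, 2 had no close partner in the set. Lrat (ENSMUSG00000028003_at) makes the retinyl esters of quiescent stellate cells. It had no r of 0.3 or more with any member and was negative with 18 of 31. Its highest r was 0.284, with Bgn, and its lowest -0.285, with Loxl1. Its r with component 1 was -0.343, and its r with Acta2 was 0.0266.

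Pdgfrb (ENSMUSG00000024620_at), the receptor for platelet-derived growth factor B, had r of 0.338 with Col3a1 and 0.319 with Bgn. With component 1 removed its r with Bgn was 0.382. The mouse of strain OR3030, in cohort 10, had the highest score of all 157 for Pdgfrb, Bgn and Reln. Tgfb1 (ENSMUSG00000002603_at), the cytokine known to drive collagen synthesis, had no r of 0.3 or more with any member. Its highest was 0.199, with Col5a1, which came 1103rd of all genes by r with Tgfb1. Its r with the mean of Col1a1, Col1a2 and Col3a1 was 0.0754.

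After adjustment, members were called about as seldom as all genes between livers killed at different times. In limma's F test over the 10 kill cohorts, with batch as a covariate and Benjamini-Hochberg adjustment over all genes, 0 of 32 members passed an adjusted p of 0.05, against 2.45% of the 23176 genes. At an unadjusted p of 0.05, 3 members passed, against 16.8% of all genes. With each gene's own spread in place of limma's shared one, 1 member passed after adjustment, against 3.32% of all genes. That gene was Col4a2, with an adjusted p of 0.0676 by limma and 0.0386 with its own spread.

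For the slope over kill day, 1 of 32 members passed, against 3.49% of all genes, so the share of members is near that of all genes. The member was Dcn. In cohorts 1 to 6, Dcn scores averaged 0.166, 0.330, 0.751, 0.0627, 0.912 and 0.0288, and in cohorts 7 to 10 they averaged -0.253, -0.400, -0.217 and -0.296. All the later 4 cohorts thus averaged below all the earlier 6, while the ranges of all 10 cohorts overlapped. The slope was -0.303 ± 0.0898 score units per 100 days (SE, n = 157, limma adjusted p = 0.0296), and it was below 0 within each of the 8 batches, from -0.543 to -0.0238. The slope was not called without cohort 1, 7 or 8 (-0.369, -0.298 and -0.279, with adjusted p of 0.0567, 0.0619 and 0.0907).

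Strain number moved with kill time. Blocks of strain number are that number divided by 1000 and rounded down. Of the 68 mice in the lower 3 of 6 blocks, 63 were in cohorts 1 to 6, and of the 89 in the upper 3 blocks, 79 were in cohorts 7 to 10. With the block as a covariate the slope of Dcn was -0.0126 (adjusted p = 0.999). In that fit 0 of the 23176 genes had a called slope.

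No other slope passed. Pdgfrb had -0.235 (adjusted p = 0.127), Lrat -0.187 (0.276) and Col5a2 0.217 (0.177), each ± 0.0898 (SE). Lum, the neighbour of Dcn, had 0.0308 (0.923), and Col1a2 and Col3a1 had 0.00826 and 0.00351. The standard error is nearly the same for all genes because limma replaced each gene's own spread by a shared value. With its own spread Dcn was again the 1 member that passed, against 3.67% of all genes.

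The 45 pairs of cohorts gave 2 calls for the 32 members, against 2139 for all 23176 genes. Each pair was adjusted over all genes on its own, and no adjustment was made across the pairs. Col1a1 scores in cohort 7 had a lowest value of -1.31, a median of 0.331 and a highest of 2.49, against -2.08, -0.408 and 0.478 in cohort 1. Of the cohort 7 livers 26 of 37 were above 0, against 4 of 20 in cohort 1, and the ranges overlapped. The difference, cohort 7 minus cohort 1, was 0.960 ± 0.271 (SE, limma adjusted p = 0.0249), and 3.49% of all genes were called in that pair. It was positive in 7 of the 7 batches that held both cohorts, from 0.363 to 1.72. With component 1 as a covariate it was 0.499 (adjusted p = 0.332), and with the strain-number block 1.33 (adjusted p = 0.190). In limma's F test over all kill cohorts Col1a1 did not pass (adjusted p = 0.391), so the call rests on this pair alone.

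Col4a2 scores in cohort 8 had a lowest value of -1.14, a median of 0.366 and a highest of 1.86, against -2.49, -0.699 and 2.24 in cohort 1. The ranges overlapped, and 13 of 22 livers of cohort 8 were above 0, against 5 of 20 of cohort 1. The difference, cohort 8 minus cohort 1, was 0.978 ± 0.298 (SE, limma adjusted p = 0.0415), where 2.83% of all genes were called. It was positive in 7 of 7 batches that held both, from 0.226 to 1.86. It was not called with the strain-number block (0.954, adjusted p = 0.423), without the batch covariate (0.849, 0.101) or with component 1 (0.837, 0.0597).

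**Figure D5:**
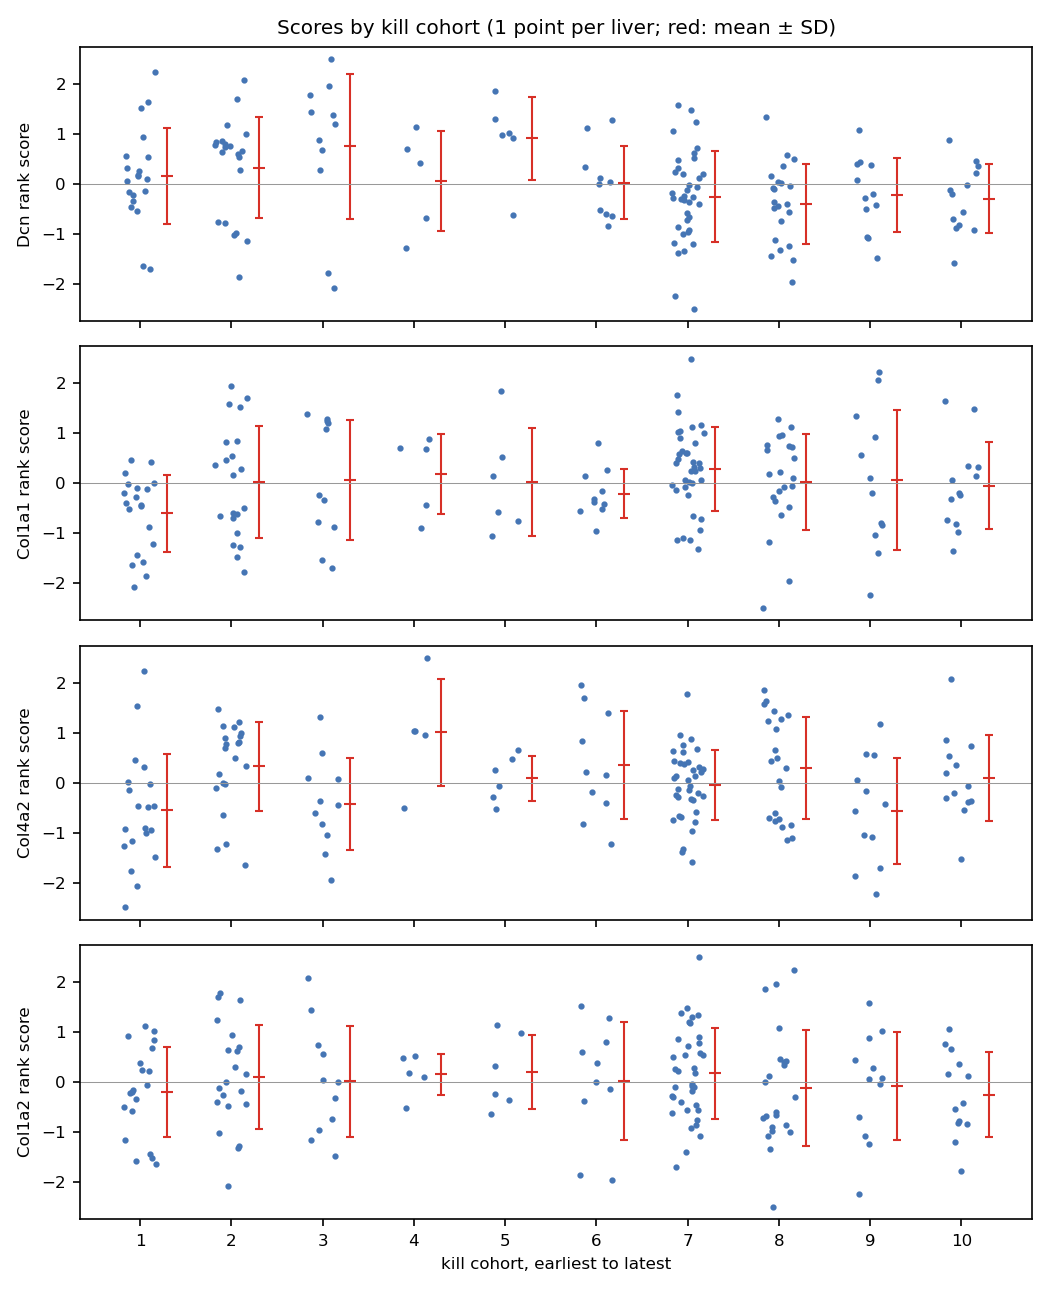
Rank scores of Dcn, Col1a1, Col4a2 and Col1a2 (vertical axes, score units) by kill cohort from the earliest to the latest; each point is 1 liver, shifted sideways at random within its cohort, and red marks show the mean ± SD. Dcn averages lie below 0 in cohorts 7 to 10 and above 0 in cohorts 1 to 6, Col1a1 is low in cohort 1, and Col1a2 shows no such step.

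The order of arrays in the laboratory was compared in the same way. Between the 8 hybridization batches, 2 of 32 members differed, Tgfb1 (limma adjusted p = 0.00204) and Col1a1 (0.0496), against 12.2% of all genes. Tgfb1 averaged -0.750 ± 0.914 in batch 5 (SD, n = 23) and between -0.234 and 0.982 in the other 7. Batch 5 minus the mean of the others was -0.924 for Tgfb1 (adjusted p = 0.0129), where 0.738% of all genes were called and no other member was. In batch 3, 2 of 32 members passed, which is near the 6.30% of all genes that did. They were Col4a2, by 0.716 (adjusted p = 0.0341), and Col4a1, by 0.688 (0.0416), both higher than the mean of the other batches. In limma's F test over the 8 batches neither passed (adjusted p = 0.0897 for Col4a2 and 0.164 for Col4a1).

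No member passed for fluidic station, slot on the station, or kill day within a cohort, and 0% of all genes passed each of these tests. At an unadjusted p of 0.05, 1, 2 and 2 of the 32 members passed them, and 11.4%, 5.07% and 7.39% of all genes. Between strain-number blocks no member passed, against 0.652% of genes; Dcn had the smallest adjusted p, 0.0867, and 4 members had an unadjusted p under 0.05, against 13.6% of all genes. With each gene's own spread, no member passed these 4 tests either, against 0%, 0%, 0.00431% and 0.979% of all genes for station, slot, kill day within cohort and strain-number block.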

How the data were processed

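Liver RNA of 157 male mice was measured on 1 Affymetrix array each. Per the labels' series text, a custom chip definition (NCBI 37, Ensembl 49) grouped the probes by gene. The submitters' processing notes name RMA and affy without versions.

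What the authors deposited is a score for each gene in each liver. Tested on the table, each equals the standard normal quantile of the liver's rank divided by the highest rank plus 1, within 6e-05. No label describes this step, and it removes level, fold and spread. The tests had been planned for log values and were run on the scores. A filter on low values has no meaning for ranks and was not applied. The number of arrays limits the precision.

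Kill dates at most 3 days apart formed a cohort. The labels give 8 batches of 11 to 24 arrays, where the series text speaks of 6 batches. Models were fitted on all 23176 genes with limma 3.58.1 (lmFit, eBayes with trend) in R 4.3.3, with calls at an adjusted p under 0.05 (Benjamini-Hochberg). Cohort, slope and cohort pairs had batch as a covariate, and batch had cohort. Correlations, components and permutations were computed in Python 3.11.15 with scipy 1.17.1, pandas 2.3.3 and numpy 2.4.6. Pair p-values are unadjusted. The slope and cohort tests, and the removal of a known shared component from a correlation, were tried on simulated data. The other steps were not. Alternatives were scaling, covariates, moderation, and cohorts left out. Each strain gave 1 mouse, so p-values rest on a spread in which strain, environment and array are mixed.

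The members and lists were chosen with earlier results of these data known. All members could be named, and of other genes those most like the mean of Col1a1, Col1a2 and Col3a1. No table used here pairs Ensembl identifiers with symbols, so marker lists of other liver cells and lists of further matrix genes were not used here.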

Additional observations from a re-analysis of the deposited data

Results flagged for a closer look

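Within each of the 3 cohorts of 5 to 10 mice, 1 liver stood far from the others for 1 gene, by the gap to its nearest neighbour relative to the range of the cohort. Loxl1 had a score of 1.64 in 1 liver of cohort 4, with the next at 0.0397 (n = 5). Timp2 had -2.08 in 1 liver of cohort 5, with the next at -0.127 (n = 6). Vim had -1.27 in 1 liver of cohort 6, with the next at 0.127 (n = 10). These are 3 of 96 groups of a gene and a cohort that were examined, and chance alone gives about 1 in 20.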

How the results depend on the processing

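For the cohort F test, 1 member, Col4a2, passed in place of 0 with each gene's own spread, with quantile normalization between arrays and with component 1 as a covariate (770, 695 and 862 of all 23176 genes passed), and the count ranged from 0 to 1 when 1 mouse of cohort 4 was left out. For the slope over kill day the count was 0 in place of 1 with the strain-number block or the strain number as a covariate, without cohort 1, 7 or 8, and in cohorts 1 to 6 or 7 to 10 alone. Of all genes, 0 and 17 were called with these 2 covariates, 261, 482 and 417 without cohort 1, 7 or 8, and 0 in either set of cohorts, in place of 810. The slope of Dcn was then -0.0126 and -0.151 with the 2 strain covariates, -0.0399 in cohorts 1 to 6 and 0.0676 in cohorts 7 to 10, so its sign turned within the late cohorts. For the hybridization batches, 1 member passed in place of 2, Tgfb1, with hybridization day in place of batch or with component 1 (999 and 1534 of all genes, in place of 2831). After quantile normalization 2 members and 2582 of all genes passed, but Col14a1 stood in place of Col1a1. For the cohort pairs, alternatives were added after seeing the data. The count of member calls was 0 with the strain-number block, 1 without the batch covariate and 0 with component 1, in place of 2. Over all genes there were 43, 1943 and 2509 calls, in place of 2139. The number of pairs with an r of 0.5 or more was 8 with batch and cohort means removed, 3 after quantile normalization, 3 with component 1 removed and 12 in cohorts 7 to 10, in place of 5. Of all pairs of genes, 0.130% had such an r with batch and cohort means removed and 0.00885% with component 1 removed, in place of 0.173%. For the other settings this share was not computed. The causes were not tested. The median r of the pairs was between 0.0945 and 0.130 under 7 alternatives. Of the 8 pairs with an r of at least 0.3 followed through these, Col1a1 with Col5a1 dropped under 0.3 with component 1 removed, and the others did not under any of the 7. No paired analysis was possible because the replicate numbers were given in accession order within cohorts and name mice of different strains. Limits: rank scores hide how far livers lie apart, 1 mouse per strain leaves strain and mouse together, and neither alcohol nor exercise could be compared.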
